A study of Mus musculus with 12 samples.

Results

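The genes described here encode voltage-gated sodium channels: the alpha subunits Scn1a, Scn2a, Scn3a and Scn8a and the beta subunits Scn2b, Scn3b and Scn4b. These 7 members were chosen by name from the 55336 rows of each count matrix, of which 55335 are mouse genes, and all 7 were detected. Single-nucleus RNA sequencing of the cortex had been performed at P21 on 6 WT and 6 MYT1L Het mice, 3 males and 3 females of each genotype. Het animals carried 1 frameshift allele of Myt1l (line MYT1L S710fsX, C57BL/6 background), and WT animals came from the same WT x Het breeding scheme. All 12 animals, controls included, had received AAV carrying calling cards reagents (a hyPB transposase and an H2b-tdT-SRT reporter) into the ventricles shortly after birth, they came from a small number of litters, and their nuclei were barcoded on the same plates. The frameshift leaves the transcript countable, so reads of the altered and the intact Myt1l allele cannot be told apart here. Between 4059 and 8798 barcodes per animal were in the files, with 23429386 to 59958572 UMIs per animal.

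Alpha subunits form the sodium-conducting pore that starts and propagates the action potential, and each of the 4 measured here is used in brain. Scn1a (NaV1.1) is best known from parvalbumin interneurons, Scn2a (NaV1.2) from the axon initial segment of excitatory neurons early in life, and Scn8a (NaV1.6) from mature initial segments and nodes of Ranvier. Scn3a (NaV1.3) is most abundant in fetal and newborn brain and declines as neurons mature, so its level against Scn1a and Scn8a can serve as a measure of maturity. Beta subunits are small single-pass proteins that bind the pore and modify its gating and surface density, and Scn4b is known for high levels in striatal projection neurons and fast-spiking cells.

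Nuclei were put in classes by UMIs of marker genes, none of them a sodium channel. Of 34861 nuclei within the limits of the study on UMIs and genes, 14950 were excitatory, 5053 inhibitory, 2185 oligodendrocytes, 355 oligodendrocyte precursors (OPC), 304 astrocytes and 189 microglia, and 11818 nuclei had no class. The excitatory nuclei held 4078 L6 CT-like, 1442 L4/5 IT-like, 954 L5 NP-like and 892 L2/3 IT-like nuclei, and 7511 without a subclass. Among inhibitory nuclei, 731 were Pvalb-like, 608 Lamp5-like, 470 Sst-like, 192 Vip-like and 300 striatal projection-like, and 2752 had no subclass. Classes are nested, so the values for neurons, excitatory nuclei and a subclass share nuclei. The median nucleus of each class held between 0 and 1 UMI of all other classes' markers against 3 to 51 of its own, and the shallowest of these classes was OPC with a median of 2224 UMIs. No doublet caller was run, and no barcode was shared between any of the 66 pairs of libraries.

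Levels are given as CPM, the UMIs of a gene per 1000000 UMIs summed over the nuclei of 1 animal and class. In neurons of both genotypes, Scn2a had 530 CPM, Scn8a 409, Scn1a 389 and Scn3a 164, and the beta subunits Scn3b, Scn2b and Scn4b had 31.5, 9.78 and 1.80. Nuclear RNA is rich in introns, so different genes are ranked here only per kb of gene. On that scale Scn2a led with 3.61 CPM per kb, Scn8a had 2.32, Scn1a 2.28, Scn3a 1.49, Scn3b 1.41, Scn2b 0.796 and Scn4b 0.114. Scn3b thus stood close to Scn3a per kb of gene, and Scn4b, with 128 UMIs in all neurons, was the lowest member.

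The loci lie on 3 chromosomes of mm10. Scn3a (chr2:65457118-65567627, minus strand), Scn2a (chr2:65620771-65767447, plus strand) and Scn1a (chr2:66270778-66440840, minus strand) lie in 1 cluster, Scn8a is at chr15:100869858-101045938 (plus strand), and the beta subunits are at chr9:40269217-40291618 (Scn3b), chr9:45117782-45130070 (Scn2b) and chr9:45138395-45154152 (Scn4b). An antisense gene inside Scn1a, Gm13630, reached 2.62% of the level of Scn1a in excitatory, 1.62% in inhibitory and 0.718% in Pvalb-like nuclei. Whether the counting used strand is not given in the sources used here.

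The 250 bases before the RefSeq start of Scn1a, Scn2a and Scn8a are shown because Scn1a and Scn8a were higher and Scn2a lower in 1 inhibitory subclass described below. They are from GRCm38.p6, the assembly behind mm10, at chr2:66440838-66441087 (minus strand) for Scn1a, chr2:65620519-65620768 and chr2:65668436-65668685 (plus strand) for the 2 starts listed for Scn2a, and chr15:100870395-100870644 (plus strand) for the upstream start of Scn8a. Capitals mark AAGTT or its reverse complement AACTT, the core of the motif of the MYT1 family.
Scn1a: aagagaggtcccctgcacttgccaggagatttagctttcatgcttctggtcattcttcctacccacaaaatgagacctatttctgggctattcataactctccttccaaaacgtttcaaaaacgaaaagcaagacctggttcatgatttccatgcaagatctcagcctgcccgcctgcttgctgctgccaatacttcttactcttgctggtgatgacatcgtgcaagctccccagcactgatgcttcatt
Scn2a, upstream start: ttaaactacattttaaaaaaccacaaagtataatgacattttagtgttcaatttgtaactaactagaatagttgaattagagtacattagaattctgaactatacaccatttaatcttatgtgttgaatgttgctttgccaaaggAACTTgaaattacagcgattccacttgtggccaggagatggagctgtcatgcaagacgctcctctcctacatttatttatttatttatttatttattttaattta
Scn2a, downstream start: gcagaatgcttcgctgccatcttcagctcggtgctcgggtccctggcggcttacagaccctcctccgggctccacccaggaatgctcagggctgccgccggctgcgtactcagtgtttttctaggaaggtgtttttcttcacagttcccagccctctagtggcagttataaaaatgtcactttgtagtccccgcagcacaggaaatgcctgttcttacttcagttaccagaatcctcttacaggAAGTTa
Scn8a, upstream start: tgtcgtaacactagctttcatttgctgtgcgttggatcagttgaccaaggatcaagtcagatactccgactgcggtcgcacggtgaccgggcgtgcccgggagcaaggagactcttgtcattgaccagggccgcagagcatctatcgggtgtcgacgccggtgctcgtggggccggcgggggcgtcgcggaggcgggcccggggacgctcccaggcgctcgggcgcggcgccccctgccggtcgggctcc
Both Scn2a windows held 1 match and the Scn1a and Scn8a windows none, where 35.3% of 32851 promoters of the same length hold one. The Scn8a window is rich in CG, with 30 CG dinucleotides and 68.0% G and C, against 4 and 46.8% in Scn1a and 2 and 29.6% in the upstream Scn2a window. The downstream windows of Scn2a and Scn8a both had 9 CG dinucleotides and 53.2% G and C, so that difference holds for the upstream starts only. The median promoter had 6 CG dinucleotides. A match describes the letters only. Of the 7 members, 5 had a promoter in the table used.

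Pvalb-like nuclei, from interneurons known for firing at high rates, were the inhibitory subclass in which all 4 tested members differed from the rest. They held the highest mean Scn1a level of the 13 classes ordered here and the lowest mean Scn3a of the 9 neuronal subclasses, with more Scn8a and less Scn2a than other inhibitory nuclei. Scn1a had 655 to 982 CPM over the 12 animals, with a median of 877. In the same animals Scn1a had 421 to 836 CPM in Lamp5-like, 364 to 549 in Sst-like and 275 to 352 in L6 CT-like nuclei. Every animal had more Scn1a in Pvalb-like than in Lamp5-like nuclei (12 of 12).

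Against the mean of the other inhibitory subclasses, with the animal as a block, Scn1a was higher in Pvalb-like nuclei by 0.82 on the log2 scale (SE 0.07, edgeR adjusted p = 5.49e-18). Scn8a was higher by 0.55 (SE 0.08, adjusted p = 1.99e-08), with 371 to 536 CPM. Scn2a fell by 0.55 (SE 0.08, adjusted p = 5.08e-09), with 259 to 412 CPM. Scn3a fell by 1.39 (SE 0.14, adjusted p = 9.42e-15), with 29.3 to 108 CPM and a median of 70.9. Of all 3332 genes tested in this comparison, 52.4% were called. Scn3b, which was too low for the test among inhibitory subclasses, had 9.01 CPM ± 4.01 (SD, n = 12) in Pvalb-like nuclei from 27 UMIs, against 35.9 ± 14.3 in Sst-like nuclei.

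**Figure D1:**
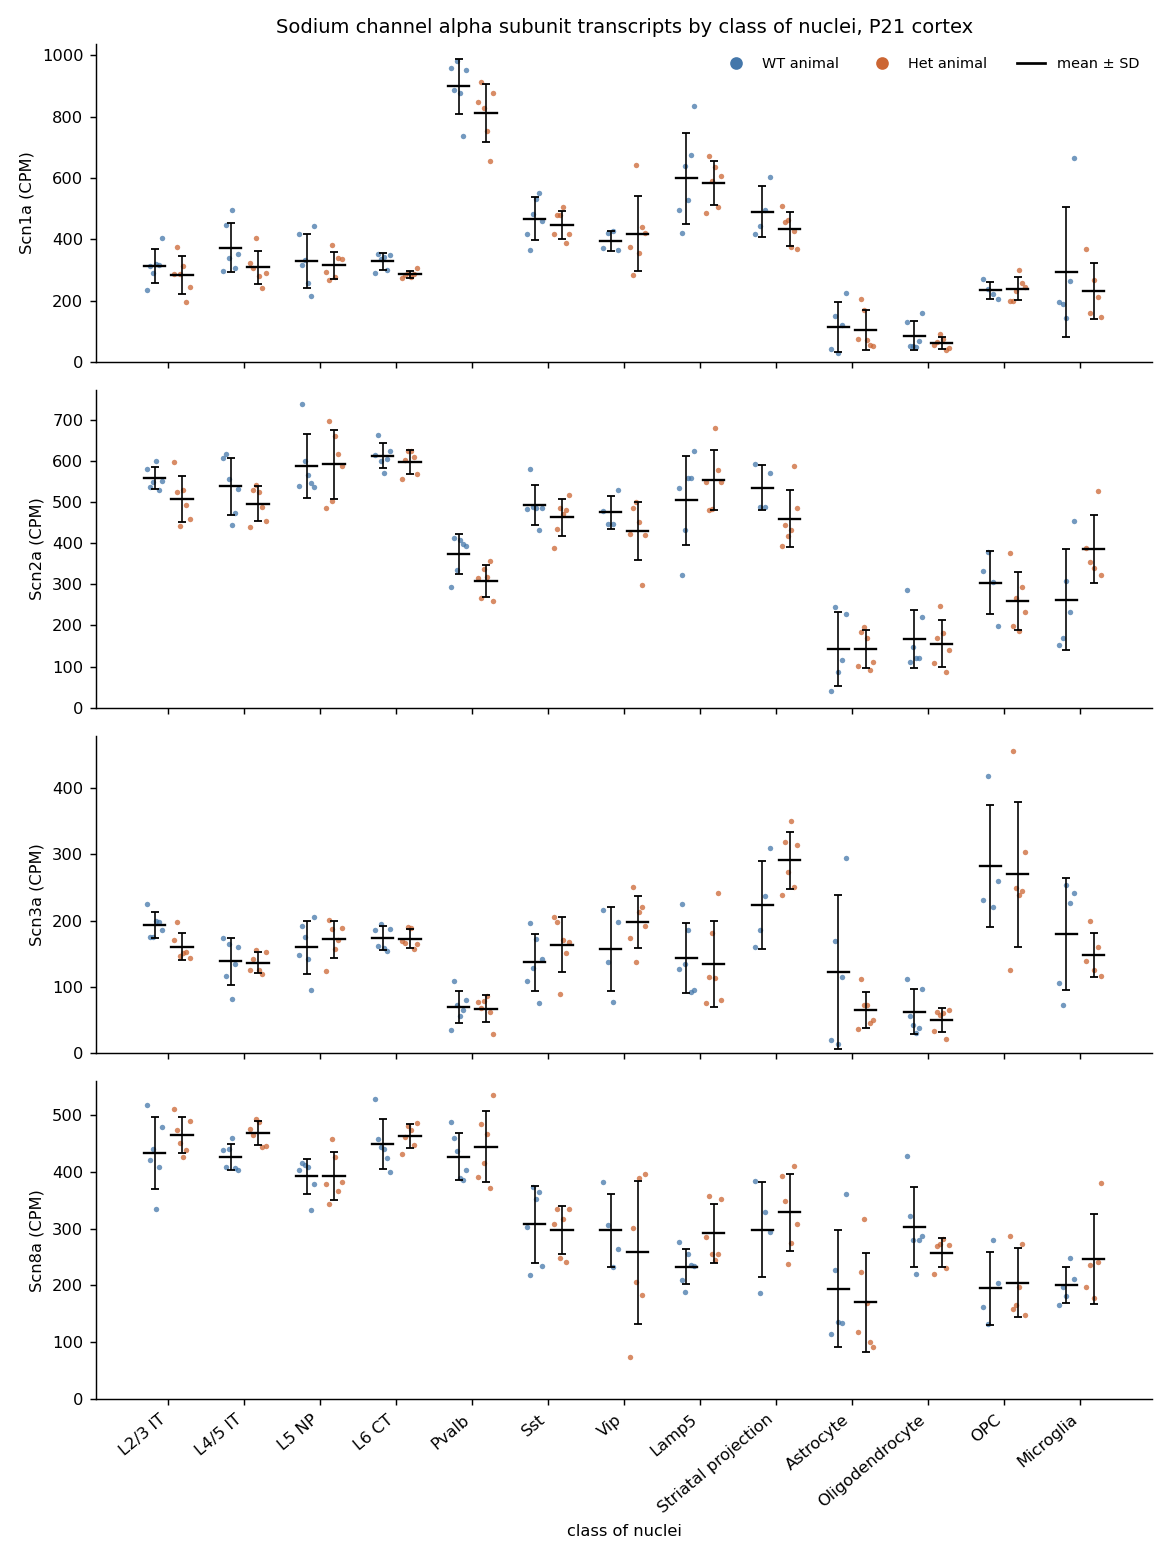
Level of the 4 alpha subunits (CPM) in each class, 1 point per animal, coloured by genotype, with the mean and SD of each genotype. Over both genotypes Scn1a peaks in Pvalb-like nuclei with a mean of 856 CPM, where Scn3a has 68.6 CPM, and the genotypes overlap in every class shown.

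Fewer of the tested members were called in each of the other inhibitory subclasses. Scn1a fell by 0.32 in Sst-like (SE 0.08, adjusted p = 0.000563) and by 0.41 in Vip-like nuclei (SE 0.10, adjusted p = 0.00066), where 31.8% and 29.4% of genes were called. Lamp5-like nuclei had more Scn2a (0.24, SE 0.08, adjusted p = 0.00691) and less Scn8a (-0.38, SE 0.09, adjusted p = 0.000453) in a comparison that called 39.8% of genes. Their Scn8a level ran from 189 to 358 CPM, below the lowest Pvalb-like value of 371 CPM and overlapping that of the Sst-like nuclei (218 to 374). Nuclei with striatal projection neuron markers carried more Scn3a by 1.13 (SE 0.14, adjusted p = 6.59e-11), with 160 to 349 CPM and a median of 262, and slightly less Scn1a (-0.23, SE 0.09, adjusted p = 0.0246). In that comparison 51.5% of genes were called.

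Inhibitory nuclei as a whole had more Scn1a than excitatory nuclei and less Scn2a and Scn8a. Scn1a had 438 to 624 CPM (median 568) in inhibitory and 270 to 394 CPM (median 319) in excitatory nuclei, and the ranges did not overlap. Scn2a had 388 to 484 CPM against 530 to 611 CPM, also without overlap, and Scn8a 267 to 367 against 406 to 477 CPM. The log2 differences of inhibitory against excitatory nuclei were 0.67 for Scn1a (SE 0.09, adjusted p = 4.8e-11), -0.45 for Scn2a (SE 0.09, adjusted p = 1.13e-05), -0.59 for Scn8a (SE 0.07, adjusted p = 5.75e-11) and -0.23 for Scn3b (SE 0.10, adjusted p = 0.0364). The Scn3b call did not hold with libraries scaled to their totals alone (-0.14, edgeR adjusted p = 0.215). Scn3a did not pass the test, with 167 CPM ± 28.5 and 163 CPM ± 10.9 (SD, n = 12). Of all 7992 genes tested, 56.0% were called here.

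Excitatory subclasses resembled each other more closely. No member was called in L2/3 IT-like nuclei by edgeR (30.2% of genes called). In L4/5 IT-like nuclei, where 20.6% of genes were called, Scn3a fell by 0.29 (SE 0.07, adjusted p = 0.000385), Scn2a by 0.13 (SE 0.05, adjusted p = 0.0319) and Scn3b by 0.41 (SE 0.15, adjusted p = 0.0486). Scn8a fell by 0.22 in L5 NP-like nuclei (SE 0.05, adjusted p = 0.000252; 30.4% called), and Scn2a was higher by 0.13 in L6 CT-like nuclei (SE 0.04, adjusted p = 0.00595; 41.4% called). Scn8a had 333 to 457 CPM in L5 NP-like and 399 to 528 CPM in L6 CT-like nuclei, so the ranges overlapped.

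**Figure D2:**
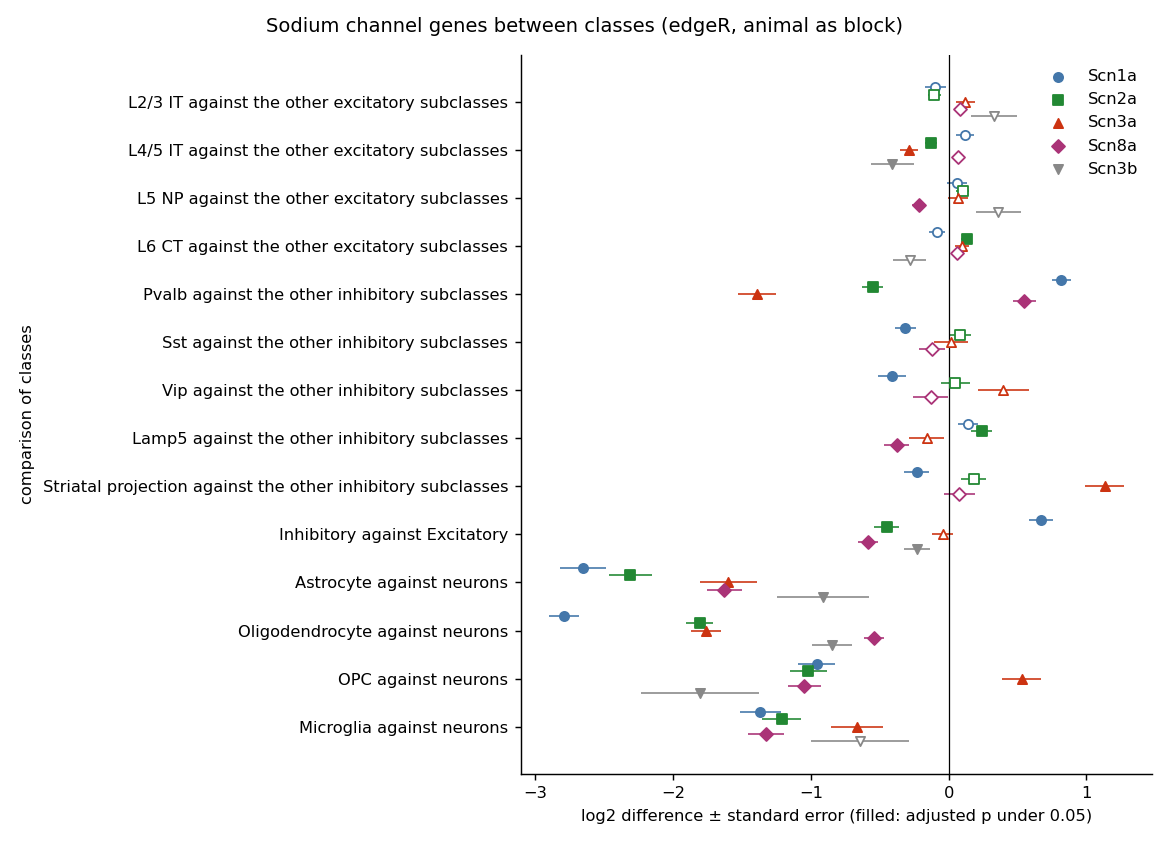
Log2 difference of each tested member between a class and its comparison classes, with bars of 1 SE, filled where the edgeR adjusted p was under 0.05. Pvalb-like nuclei show Scn1a at 0.82 and Scn3a at -1.39, and OPC show Scn3a at 0.53 where the other alpha subunits are below 0.

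Glial nuclei held less of most members than neurons. In astrocytes all 5 tested members were lower, from -0.91 for Scn3b (SE 0.33, adjusted p = 0.0168) to -2.66 for Scn1a (SE 0.17, adjusted p = 6.55e-26), in a comparison where 52.5% of genes were called. Microglia had less of Scn1a (-1.37), Scn8a (-1.32) and Scn2a (-1.21), where 46.4% of genes were called and the median over all genes was -0.36. The call of Scn3a in microglia (-0.66, SE 0.19, adjusted p = 0.00239) rested on the TMM scaling of libraries. With libraries scaled to their totals alone, an alternative chosen after the data were seen, it was -0.06 (edgeR adjusted p = 0.866) and the median over all genes 0.24. In astrocytes that scaling moved the median over all genes from -0.15 to 0.31, and Scn3b (-0.46, adjusted p = 0.283) no longer passed. As a measure of neuronal RNA in glial nuclei, the summed level of Snap25, Syt1, Rbfox3, Grin1 and Syn1 was set beside these values. That sum stood at 23.8% of its neuronal level in astrocytes, 21.2% in oligodendrocytes, 11.5% in OPC and 55.0% in microglia. In astrocytes Scn1a stood at 24.3%, Scn2a at 28.6%, Scn8a at 48.0%, Scn3a at 55.4% and Scn3b at 74.7% of the neuronal level. In microglia Scn1a stood at 58.6%, Scn8a at 59.3%, Scn2a at 65.0%, Scn3b at 98.0% and Scn3a at 99.7%. Scn1a was thus near the share of the neuronal transcripts in both classes, and Scn3a and Scn3b were above it. The part of neuronal RNA in these levels was not tested.

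OPC were the exception for Scn3a. Its level was 125 to 456 CPM over 10 animals, with a median of 247, above neurons by 0.53 on the log2 scale (SE 0.14, adjusted p = 0.00111; 48.3% of genes called). In percent of the neuronal level Scn3a stood at 167% in OPC, where the neuronal transcripts stood at 11.5%. That sum is mostly Syt1 in neurons (3505 of 5506 CPM in excitatory nuclei), and its genes differed in OPC. Syn1 had 63.2 CPM in OPC against 199 in excitatory nuclei, and Rbfox3 17.6 against 589. The other alpha subunits were lower in OPC, Scn1a by 0.96 (SE 0.13), Scn2a by 1.02 (SE 0.13) and Scn8a by 1.05 (SE 0.12), yet each kept 53.0% to 55.5% of its neuronal level. OPC are known to carry voltage-gated sodium currents, and the sodium leak channel gene Nalcn, one of the partner genes, was also higher there (0.36, SE 0.10, adjusted p = 0.000971).

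Oligodendrocytes differed by member. Scn1a was lower by 2.79 (SE 0.11, adjusted p = 1.04e-42), with 38.5 to 159 CPM, and stood at 16.4% of its neuronal level, below the 21.2% of the neuronal transcripts. Scn8a was lower by only 0.54 (SE 0.07, adjusted p = 1.74e-10), with 219 to 428 CPM, and stood at 74.3%. Scn2a and Scn3a fell by 1.81 and 1.76. In this comparison 77.8% of genes were called, and the median over all genes was -0.01.

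Over the 14 class comparisons, 38 of 65 member tests were called, 7 higher and 31 lower, where 20.6% to 77.8% of all genes were called in each comparison. The members' share lay within that range. Ordered by mean level, Scn1a ran from Pvalb-like (856 CPM) through Lamp5-like (591), Sst-like (458), striatal projection-like (455) and Vip-like nuclei (409) to the excitatory subclasses (340 to 298), microglia (261), OPC (236), astrocytes (108) and oligodendrocytes (73.3). Scn2a ran the other way among neurons, from L6 CT-like (605) and L5 NP-like (589) down to Pvalb-like nuclei (341), with astrocytes last (143). Scn3a was highest in OPC (274) and striatal projection-like nuclei (264) and lowest in Pvalb-like nuclei (68.6) and oligodendrocytes (56.6). Scn8a was highest in L6 CT-like nuclei (456) and lowest in astrocytes (181).

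In exact two-sided sign-flip permutation tests, paired by animal, 2 of 84 neighbouring pairs in these orders passed after Benjamini-Hochberg adjustment. A pair that did not pass is not shown to be alike, since with 10 animals the exact permutation p cannot go below 0.00195 before adjustment. Both concerned Scn1a: Pvalb-like above Lamp5-like nuclei (exact p = 0.000488, adjusted p = 0.0410, higher in 12 of 12 animals) and Lamp5-like above Sst-like nuclei (exact p = 0.000977, adjusted p = 0.0410, higher in 11 of 12). With nuclei above the UMI and gene limits kept, and the limit on log genes over log UMIs dropped as well, 9 of 84 passed. For the neighbours this alternative was chosen after the data were seen. Results given below without the upper limits use the same set of nuclei.

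Partner genes of the channels were described from 5 lists: other sodium channel genes, FGF homologous factors, initial segment scaffold genes, M-current channels and the ubiquitin ligase Nedd4l. Of 21 partners, 14 passed the filter on low counts in the comparison of inhibitory with excitatory nuclei, 3 of them higher and 10 lower, where 26.1% of all genes were higher and 29.9% lower. Fgf13, whose product binds the channels' C terminus, was higher by 3.37 (SE 0.11, adjusted p = 3.31e-41), with Fgf12 at 0.55 and Nalcn at 0.33. Among the lower genes were the potassium channel gene Kcnq3 (-0.87) and the scaffold gene Ank3 (-0.30), whose product ankyrin G anchors sodium channels at the initial segment. The list's median was -0.33 beside -0.02 over all genes.

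Pvalb-like nuclei had 4 partners higher and 6 lower of 12 tested, in a comparison with 27.5% of all genes higher and 24.9% lower. Fgf12 was higher by 1.68 (SE 0.07, adjusted p = 7.19e-35) and Kcnq3 by 0.90, while Fgf13 fell by 0.70, Nalcn by 0.83 and Ank3 by 0.59. Lamp5-like nuclei showed the opposite pair, with Fgf13 higher by 3.57 (SE 0.11, adjusted p = 3.53e-30) and Fgf12 lower by 1.56. In striatal projection-like nuclei 8 of 12 partners were higher and 2 lower, where 26.1% of all genes were higher and 25.4% lower. The higher partners included Nedd4l (1.34), Fgf14 (0.96), Sptbn4 (0.91) and Ank3 (0.82). Oligodendrocytes had more Nfasc (3.24, SE 0.08) and Ank3 (1.08, SE 0.09), genes of nodal and paranodal adhesion and scaffolding, and less of 11 other partners, where 39.6% of all genes were lower.

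To ask whether Het nuclei kept more of the immature channel, the ratio of Scn3a UMIs to Scn1a and Scn8a UMIs was taken per animal and class, on a log2 scale. As the ratio is a score over the members, it is given as a description without a test. It was -2.25 ± 0.09 (SD, n = 12) in excitatory and -2.40 ± 0.34 in inhibitory nuclei. Pvalb-like nuclei had the lowest ratio, -4.25 ± 0.57 or 5.24 Scn3a UMIs per 100 of Scn1a and Scn8a. OPC had the highest ratio, -0.72 ± 0.66 or 60.5 per 100. Microglia (-1.55 ± 0.59, 34.2 per 100) and striatal projection-like nuclei (-1.55 ± 0.40, 34.1 per 100), the highest among neurons, followed with nearly the same value.

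The genotypes overlapped in this ratio in every class with nuclei chosen as above. Excitatory nuclei had -2.28 ± 0.12 in WT and -2.23 ± 0.04 in Het animals (SD, n = 6), a difference of 0.05 (SE 0.05). The direction of that difference depended on the reference, with 0.19 against Scn1a alone and -0.058 against Scn8a alone. Inhibitory nuclei had -2.48 ± 0.38 and -2.31 ± 0.30, a difference of 0.16 (SE 0.20). In L2/3 IT-like nuclei the Het value was lower, -2.21 ± 0.12 against -1.93 ± 0.22 in WT, and no Het animal lay above the WT median (0 of 6). Without the upper limits on nuclei that difference was 0.04, and under a stricter gate on marker UMIs it was -0.70, without overlap of 3 WT and 6 Het animals. The Het value was higher in 3 inhibitory subclasses, by 0.43 (SE 0.22) in striatal projection-like, 0.44 (SE 0.37) in Vip-like and 0.30 (SE 0.31) in Sst-like nuclei, and in each of these 5 of 6 Het animals exceeded the median WT value. In Lamp5-like nuclei it was lower, by -0.23 (SE 0.42), where 2 of 6 Het animals exceeded the WT median, and in Pvalb-like nuclei the difference was 0.01 (SE 0.34).

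**Figure D3:**
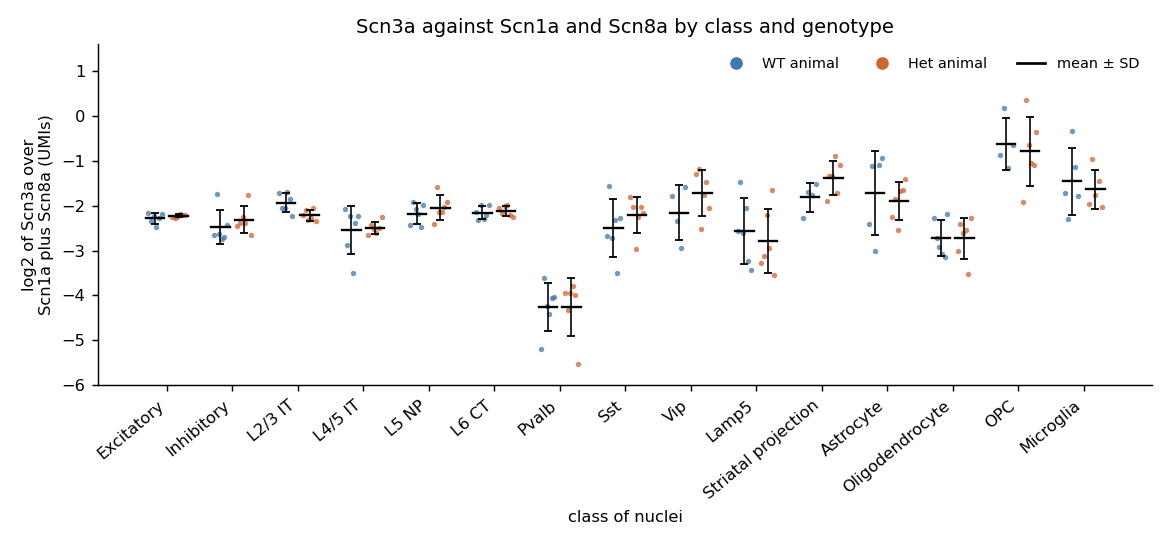
Log2 ratio of Scn3a UMIs to the sum of Scn1a and Scn8a UMIs per animal and class, coloured by genotype, with the mean and SD of each genotype. Pvalb-like nuclei sit lowest, with a mean of -4.25, OPC highest with -0.72, and WT and Het animals overlap in every class.

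Genes of immature neurons were set beside the ratio. Of Dcx, Sox11, Sox4, Tubb3, Stmn2, Igfbpl1 and Cd24a, 5 passed the filter on low counts in excitatory nuclei and 5 in inhibitory nuclei, and edgeR called none in Het against WT. Their median log2 change was -0.07 in excitatory and -0.24 in inhibitory nuclei, beside -0.00 over all genes in each. Against the other inhibitory subclasses, Pvalb-like nuclei, with the lowest ratio, had 2 of 2 tested genes of this list higher. Their median was 0.43, where 27.5% of all genes were higher. Striatal projection-like nuclei, with the highest neuronal ratio, had 1 of 2 lower (median -1.24, 25.4% of all genes lower). In these classes the list went against the ratio, so the class order by ratio is not shown to be an order of maturity.

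Across the genotypes, Myt1l, the targeted gene, had 911 to 1091 CPM in excitatory nuclei of WT and 1036 to 1232 CPM of Het animals, a log2 change of 0.15 (SE 0.06, adjusted p = 0.410) that did not pass. Of 81 tests of a member in a class, edgeR called 0 and DESeq2 called 0. In edgeR 7 had an unadjusted p under 0.05, 5 of them for Scn1a and 2 for Scn2a. The 5 for Scn1a were in neurons, excitatory, L4/5 IT-like and L6 CT-like nuclei and excitatory nuclei without a subclass. The first 2 of these classes contain the nuclei of the other 3, so they are not 5 separate results. The share of all genes with an unadjusted p under 0.05 is not given here. Few genes of any kind were called: 0.208% in excitatory nuclei, 0.0693% in neurons, 0.471% in L6 CT-like, 0.0786% in L2/3 IT-like, 0.0577% in L4/5 IT-like and 0.0269% in Pvalb-like nuclei, 0.0288% in excitatory nuclei without a subclass and 0% in the other classes.

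Scn1a leaned lower in Het animals, in 15 of 17 classes, some of which share nuclei, without passing the adjusted test in any. The sign held in every setting tried in 10 of the 15 and turned in at least 1 setting in the other 5, which were L2/3 IT-, Sst- and Lamp5-like nuclei, inhibitory nuclei without a subclass and microglia. In L2/3 IT-like nuclei the change of -0.15 became 0.25 under the stricter gate. In excitatory nuclei it had 308 to 394 CPM (median 365) in WT and 270 to 342 CPM (median 313) in Het animals. The ranges overlapped, and 6 of 6 Het animals lay below the WT median. The log2 change was -0.21 (SE 0.07, edgeR adjusted p = 0.262). Over the 19 settings tried for excitatory nuclei it ran from -0.25 to -0.17, with adjusted p from 0.105 to 0.623.

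L6 CT-like nuclei showed the smallest adjusted p of the members. Scn1a had 290 to 352 CPM (median 338) in WT and 275 to 306 CPM (median 284) in Het animals, and 5 of 6 Het animals lay below the lowest WT animal. The change was -0.22 (SE 0.07, adjusted p = 0.183 by edgeR and 0.0655 by DESeq2). In L4/5 IT-like nuclei it was -0.30 (SE 0.12, adjusted p = 0.451), with 298 to 495 CPM in WT and 241 to 405 CPM in Het animals. Inhibitory nuclei gave -0.11 (SE 0.09, adjusted p = 1.00), with an interval of 2 SE from -0.28 to 0.06. The difference of the Scn1a change between inhibitory and excitatory nuclei was 0.11 (SE 0.09, edgeR adjusted p = 1.00) and did not pass, so a difference between these classes was not shown. In that comparison 0.0344% of genes were called, and 0.00591% without the upper limits on nuclei. No member was called by edgeR for a difference of the genotype change between the sexes, where 0.00771% of genes were called in excitatory, 0.0192% in L4/5 IT-like and 0.0269% in Pvalb-like nuclei.

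For the other members in excitatory nuclei, the change in Het was -0.07 for Scn2a (interval of 2 SE, -0.16 to 0.02), -0.03 for Scn3a (-0.15 to 0.10) and 0.04 for Scn8a (-0.07 to 0.15). For the beta subunits Scn2b and Scn3b it was 0.24 (-0.16 to 0.64) and 0.10 (-0.09 to 0.29). These beta subunit values moved with single animals: Scn2b was 0.05 without Het female 3, 0.09 without WT female 3 and 0.37 without WT male 3, and Scn3b was 0.02 without Het female 1. The Scn2b change in males minus that in females was -0.99 (SE 0.36, edgeR adjusted p = 0.759) and did not pass. In Pvalb-like nuclei, Scn2a had 294 to 412 CPM in WT and 259 to 357 CPM in Het animals, a change of -0.30 (SE 0.12, adjusted p = 0.868). The other Scn2a value with an unadjusted p under 0.05 went the opposite way: in microglia it had 151 to 453 CPM in 5 WT and 321 to 528 CPM in 5 Het animals, a change of 0.68 (SE 0.32, edgeR adjusted p = 0.999). The Scn3a estimates were 0.37 (SE 0.23, adjusted p = 0.723) in striatal projection-like and 0.35 (SE 0.32, adjusted p = 0.988) in Vip-like nuclei, and neither passed.

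**Figure D4:**
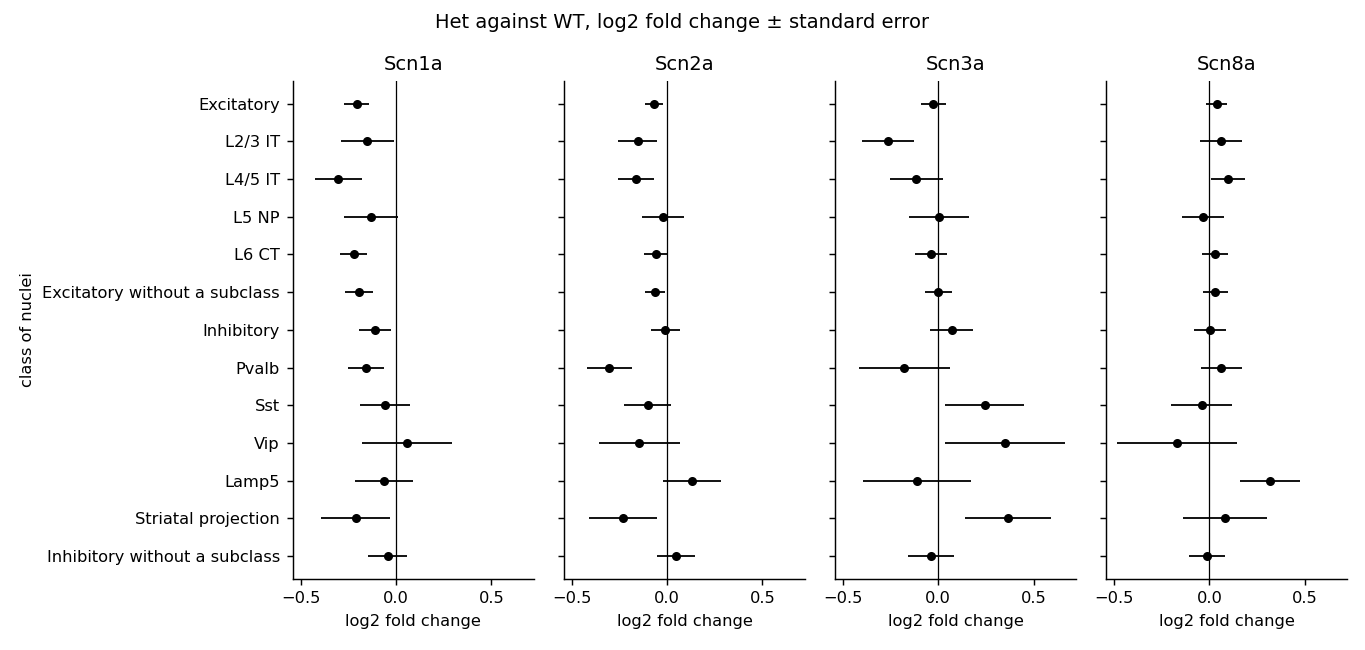
Log2 fold change of the 4 alpha subunits in Het against WT in the neuronal classes, with bars of 1 SE. Scn1a lies below 0 in each class shown other than Vip-like nuclei, at -0.30 in L4/5 IT-like nuclei, and no alpha subunit passed the edgeR adjusted p of 0.05. The sign of Scn1a turned in at least 1 other setting in L2/3 IT-, Sst- and Lamp5-like nuclei and in inhibitory nuclei without a subclass.

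None of the 18 partners tested was called by edgeR in Het against WT in neurons, excitatory or inhibitory nuclei. Their median change was 0.00 in neurons, 0.02 in excitatory and 0.03 in inhibitory nuclei, beside -0.01, -0.00 and -0.00 over all genes.

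Scn4b, which was too low for the filter of the genotype test in every class, had a pattern of its own. Striatal projection-like nuclei held 40.3 CPM ± 39.4 (SD, n = 10), from 44 UMIs. Astrocytes followed with 16.9 CPM ± 24.0 from 11 UMIs. No UMI was counted in L5 NP-like, Sst-like or Vip-like nuclei, where 3 UMIs over all animals would be a level of 0.936, 1.68 and 5.27 CPM. Pvalb-like nuclei had 6 UMIs, all in Het animals.

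Het animals held more Scn4b than WT animals. Over all nuclei the 6 WT animals had 1.04, 1.45, 1.78, 2.21, 2.52 and 2.93 CPM, and the 6 Het animals 3.82, 4.08, 4.08, 4.49, 4.70 and 5.60 CPM. Every Het animal was above every WT animal. The means were 1.99 ± 0.698 from 96 UMIs and 4.46 ± 0.639 from 290 UMIs, a ratio of 2.25. In neurons the ranges also did not overlap, 0.630 to 1.61 against 1.73 to 3.55 CPM. Of all genes with a mean of at least 1 CPM, 0.391% had every Het above every WT animal over all nuclei and 0.407% in neurons. The look at this gene was chosen after its values were seen, so these ranges are a description and carry no p-value. Without the upper limits on nuclei the ranges over all nuclei overlapped, 0.724 to 2.28 CPM in WT and 2.13 to 4.22 CPM in Het animals. With no filter on low counts, edgeR called Scn4b in neurons (1.34, adjusted p = 0.00873, where 0.329% of genes were called) and in inhibitory nuclei (1.72, adjusted p = 0.0479, 0.0991% called). Those calls rest on 30 WT and 98 Het UMIs in neurons, and on 13 and 60.5 in inhibitory nuclei. They concern a gene picked for its values, so they add no support of their own.

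Nuclei with striatal markers were also more frequent in the Het libraries. They made up 1.20% to 7.64% (median 3.96%) of inhibitory nuclei in WT and 4.66% to 9.62% (median 7.43%) in Het animals. All 7 striatal marker genes had a higher mean in Het animals over all nuclei and none was at 0. The nuclei were put in this class by 6 of these genes, so marker levels and counts of nuclei share UMIs. They do not support each other separately. The share of all genes with a higher Het mean was not taken. Rgs9 had 37.5 to 70.4 CPM in WT and 74.9 to 86.5 CPM in Het animals. The ranges of 2 of the 7 markers did not overlap, where 0.391% of all genes had every Het above every WT animal. Their summed level was 1147 to 1464 CPM in WT and 1394 to 1601 CPM in Het animals, most of it Pde10a. Without Pde10a, which other inhibitory nuclei also express, the sum of the other 6 was 58.7 to 102 and 107 to 133 CPM, without overlap. The sum of all 7 did overlap, and no share over all genes was taken for such sums. The part of these nuclei, 87 in WT and 213 in Het animals, in the Scn4b difference was not tested. Of the 386 Scn4b UMIs over all nuclei, 44 were in striatal projection-like nuclei and 128 in neurons as a whole. The other 258 were in nuclei outside the neuronal classes, most of which had no class. Scn4b had 1.66 to 4.69 CPM there in WT and 6.55 to 8.94 CPM in Het animals, without overlap. The share of all genes without overlap was not taken for these nuclei. In excitatory nuclei Scn4b had 0.260 to 1.40 CPM in WT and 0.420 to 2.50 CPM in Het animals, so those ranges overlapped. Within striatal projection-like nuclei Scn4b had 0 to 63.9 CPM in 4 WT and 20.1 to 132 CPM in 6 Het animals.

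**Figure D5:**
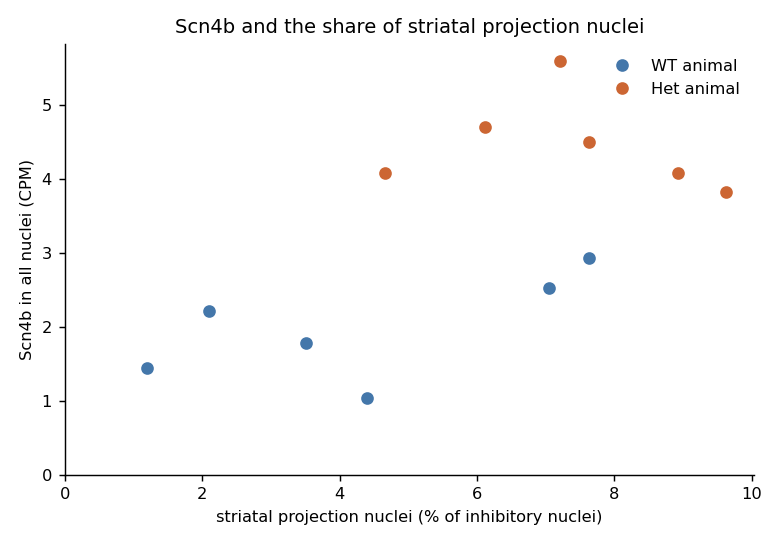
Scn4b level over all nuclei (CPM) against the share of inhibitory nuclei that carry striatal projection neuron markers (percent), 1 point per animal, coloured by genotype. Het animals lie between 3.82 and 5.60 CPM, all above the WT animals. Their shares, from 4.66% to 9.62%, overlap those of WT animals, from 1.20% to 7.64%. The lowest WT share rests on 3 of 250 inhibitory nuclei.

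The genes whose level ran most like that of a member over the 9 neuronal subclasses of WT animals were listed, among genes with a mean of at least 50 CPM. For Scn1a these were Depdc5 (r = 0.95), Nfyc (0.94) and Ppip5k2 (0.92). Scn2a had Gm26871 (0.98), Stim2 (0.95) and the calcium channel gene Cacna1e (0.94), Scn3a had Ppp3cb (0.93), Pde4b (0.93) and Ryr3 (0.92), and Scn8a had the potassium channel gene Kcnma1 (0.92) and Fbxo34 (0.91). The beta subunits were closest to 2210408F21Rik (0.97, Scn2b), Fam120c (0.95, Scn3b) and Adcy5 (0.94, Scn4b), the last a cyclase gene of striatal neurons. The limit of 50 CPM did not apply to the members, and Scn4b had a mean of 2.80 and Scn2b of 10.1 CPM. In WT striatal projection-like nuclei Scn4b had 4, 0, 2 and 0 UMIs per animal. It had none in WT L2/3 IT-, L5 NP-, Pvalb-, Sst-, Vip- and Lamp5-like nuclei, so its correlation rests on values near the floor. Among members, Scn1a and Scn2a ran opposite (r = -0.89), as did Scn1a and Scn3a (-0.75), while Scn2a and Scn3a ran together (0.85). These correlations describe 9 subclasses from the same 6 WT libraries, and the Pvalb-like and striatal projection-like nuclei are the far points of several of them.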

How the data were processed

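Nuclei from flash-frozen P21 cortices were fixed and barcoded by the authors with the Scale Biosciences kit. Reads were mapped to mm10 and UMIs counted with ScaleRna, and nuclei were called with CellFinder. The deposited values are expected counts per gene and barcode, not normalized, in which the authors' pipeline divides a UMI between genes it fits; 92.6% of entries were whole numbers. Per the submitters' notes, Seurat 4.3.0 and DESeq2 1.38.3 were used by the authors.

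The study's limits (UMIs between 800 and 6000, between 300 and 3000 genes, mitochondrial share up to 1%, log genes over log UMIs no lower than 0.9) kept 34861 of 78743 barcodes. The study states more nuclei of this age than the files hold barcodes, so its nuclei and the present ones differ. A nucleus was put in a class with at least 2 marker UMIs of it and 75% of its marker UMIs in it; Rfx3, Bcl11b, Garnl3, Inpp4b and Pde10a were dropped because other classes of the same level held them too, and L5 ET, L6b, dentate granule and vascular classes were too small to use. Classes were rebuilt from markers and can differ from those of the study. Counts were summed per animal and class (at least 10 nuclei) and rounded. The viral reporter was kept out of totals. No column of other samples was left out (0).

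Summed counts were tested over all genes with edgeR 4.0.16 (TMM, filterByExpr, robust quasi-likelihood, Benjamini-Hochberg adjusted p under 0.05): genotype alone per class, class against class with the animal as a block, and interactions. P-values of the genotype tests measure the spread between animals, 6 per genotype in most classes. Vip-like, striatal projection-like and OPC classes had 4 WT animals, astrocytes 5 WT animals, and microglia 5 of each genotype. P-values of the class tests measure the spread of class differences within animals. Exact permutation tests of neighbours in the order went through all sign flips of the paired differences in log2(CPM + 1), and scipy 1.17.1 gave their Benjamini-Hochberg adjustment. The ratio added 0.5 UMIs to each side. Alternatives were DESeq2 1.42.0, no filter on low counts, no upper limits on nuclei, a stricter gate of 4 marker UMIs, WT animals only and library totals without TMM for classes, a replicate block and each animal left out. The alternative without upper limits also dropped the limit on log genes over log UMIs and kept 78722 barcodes.

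Named genes were the 7 members, the partner and immature neuron lists, Myt1l and the 3 most alike genes per member; some genes of these lists are not reported here. Members and lists were chosen with earlier results of these data known, and the neuronal transcripts, the look at Scn4b and the striatal marker comparison were chosen after the values were seen. Replicate numbers are unique within a sex only and mark no shared animal, litter or day in the labels. Same-numbered animals of a sex did not deviate together (r from -0.09 to 0.05 in neurons, 0 of 6 pairs over 0.1), so they were not taken as pairs. Libraries of 1 group differed beyond sampling noise in all 30 pairs (chi-square per degree of freedom from 2.47 to 11.3). Promoters are RefSeq sequences of GRCm38.p6; gene positions are from GENCODE M21 by identifier. The test scripts were checked on simulated data.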

Additional observations from a re-analysis of the deposited data

Results flagged for a closer look

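In 100 groups of 6 animals of 1 genotype, the highest or lowest animal was compared with the rest by Dixon's test. It stood apart in 7, where chance alone flags about 1 in 20 groups, so 7 is near that share. Het female 2 had 438 CPM of Scn1a in inhibitory nuclei, where the other Het animals had 541 to 582, and its log2 ratio of Scn3a to Scn1a and Scn8a was -2.06 in neurons, where the others had -2.33 to -2.23. WT male 2 had 230 CPM of Scn3a in inhibitory nuclei against 136 to 169 in the other WT animals, with a ratio there of -1.73 against -2.74 to -2.43. The same animal had 738 CPM of Scn2a in L5 NP-like nuclei, where the others had 537 to 600. Het female 1 had 555 CPM of Scn2a in neurons against 507 to 525. In Pvalb-like nuclei the ratio of Het female 3 was -5.53 against -4.33 to -3.79. Between the sexes, a gene and class pair was flagged only under a strict rule. All 3 Het animals had to lie beyond all 3 WT animals in 1 sex, and beyond them the opposite way in the other. None of 70 pairs met it, and this rule cannot show smaller differences between the sexes.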

How the results depend on the processing

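Het against WT stayed at 0 called members with each of the 12 animals left out (0 to 0), with DESeq2, with the replicate block (0) and without the upper limits on nuclei. With no filter on low counts 2 were called, both Scn4b. Of the 38 class calls, 24 remained with WT animals only (24 calls in all there), and without the upper limits 58 of 74 member tests were called (32.1% to 75.7% of all genes), among them 36 of the 38 in the same direction. The stricter gate kept 34 of 36, and library totals without TMM 35 of 38. Neighbours in the order numbered 2, and 9 without the upper limits.

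The Het minus WT difference of the ratio in excitatory nuclei, 0.05, was 0.19 against Scn1a alone and -0.058 against Scn8a alone, and ran from 0.01 to 0.07 with 1 animal left out. In inhibitory nuclei it ran from 0.05 to 0.31. In L2/3 IT-like nuclei the difference of -0.28 was 0.04 without the upper limits. Under the stricter gate it was -0.70, from 72 WT nuclei of 3 animals and 160 Het nuclei of 6 animals, without overlap. Leaving out 1 animal moved the Scn1a change between -0.25 and -0.17 in excitatory, -0.25 and -0.20 in L6 CT-like and -0.40 and -0.23 in L4/5 IT-like nuclei. In L2/3 IT-like nuclei it was -0.15 and turned to 0.25 under the stricter gate; the cause was not tested. Numbers from 1 to 3 within a sex gave no sign of pairing.

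Depth limits the low members and small classes: Scn4b, Scn2b and most glial values rest on few UMIs.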
